A study of Macaca mulatta with 6 samples.

Results

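The interleukin-1 (IL-1) family was followed here through 9 genes: the ligands IL1A, IL1B and IL18, the receptor antagonist IL1RN, the receptor chains IL1R1 and IL1RAP, the decoy receptor IL1R2, the IL-18 binding protein IL18BP and the inhibitory receptor SIGIRR. They were chosen by gene symbol, and 8 of the 9 were matched among the 32386 rows of the count table. IL18 was matched to no row and was not analysed here. RNA came from 6 rhesus macaque colonies, 3 labelled TET2 uniallelic (UA, genotype TET2+/-) and 3 labelled TET2 wild type (WT). Each was a granulocyte-macrophage colony (CFU-GM) grown for 14 days in semi-solid medium after CD34+ marrow cells were plated singly, so that each colony is taken as 1 clone. The marrow was taken 15 months after autologous transplantation of CRISPR/Cas9-treated CD34+ cells, a history that the WT colonies share with the UA ones. The UA colonies carried a predicted loss-of-function mutation in 1 TET2 allele, read from the DNA of the same colony, and the labels do not say which mutation, whether the 3 colonies shared it, or how many animals were used.

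IL-1α and IL-1β, encoded by IL1A and IL1B, are alarm cytokines that monocytes, macrophages and other cells release during infection or injury. Both bind IL1R1, which then recruits IL1RAP and signals through MYD88 and IRAK kinases to NF-kB. The family carries its own brakes: IL1RN occupies IL1R1 without signalling, IL1R2 binds ligand but lacks a signalling domain, SIGIRR dampens signalling, and IL18BP sequesters IL-18. Loss of Tet2 in mouse macrophages has been linked to higher IL-1β, and IL-1 drives blood stem cells towards myeloid output.

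The libraries held 6334264 to 17684447 counts in UA and 10574104 to 25485143 in WT. TET2 itself was at 238, 225 and 229 CPM in the UA libraries (counts relative to library size, scaled by TMM, a factor that offsets differences in RNA composition), against 79.3, 92.8 and 109 CPM in the WT libraries (log2 ratio 1.30, SE 0.16, edgeR adjusted p = 3.93e-05). That level is higher under the mutant label, and since a small edit need not lower RNA it does not check the labels. The 3 UA libraries were closer to each other than the WT ones, with a biological coefficient of variation of 0.101 to 0.109 between pairs, against 0.193 between WT replicates 2 and 3. WT replicate 1 stood apart, at 0.34 and 0.336 from WT replicates 2 and 3. Without it 9949 of 14367 genes tested and 7 IL-1 family members were called. Counts of every pair of libraries in a group differed by more than counting noise (chi-square per degree of freedom 4.21 to 5.21 between UA pairs and 12.2 to 85.1 between WT pairs), which amplified libraries of 1 RNA could also do. The labels give 3 samples of each group, so each library was counted as 1 sample, and a fit with the 3 UA libraries summed to 1 sample is given beside the results it changes. No label says that the colonies came from separate animals, so the p-values measure the spread between these libraries only.

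In UA colonies the RNA of both ligands, of the antagonist and of the decoy receptor was far lower, while the signalling receptor IL1R1 and the inhibitory SIGIRR were higher. Of the 8 members tested, 3 rose, 4 fell and 1 did not pass (edgeR quasi-likelihood test, adjusted p under 0.05 over all 13768 genes tested). This stands against a background in which 66.0% of all genes tested were called, 34.6% higher and 31.4% lower. All 8 members had groups that did not overlap, as did 73.2% of all genes (39.2% higher and 34.0% lower in UA). The share of members called is therefore not far from that of genes at large, and what the members add is their directions and sizes. With the UA libraries summed, 4 members were called, IL1A, IL1B, IL1RN and IL1R2, where 38.9% of all genes were. In pools of cells such as a colony, fewer cells of a type and less RNA per cell cannot be told apart.

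**Figure D1:**
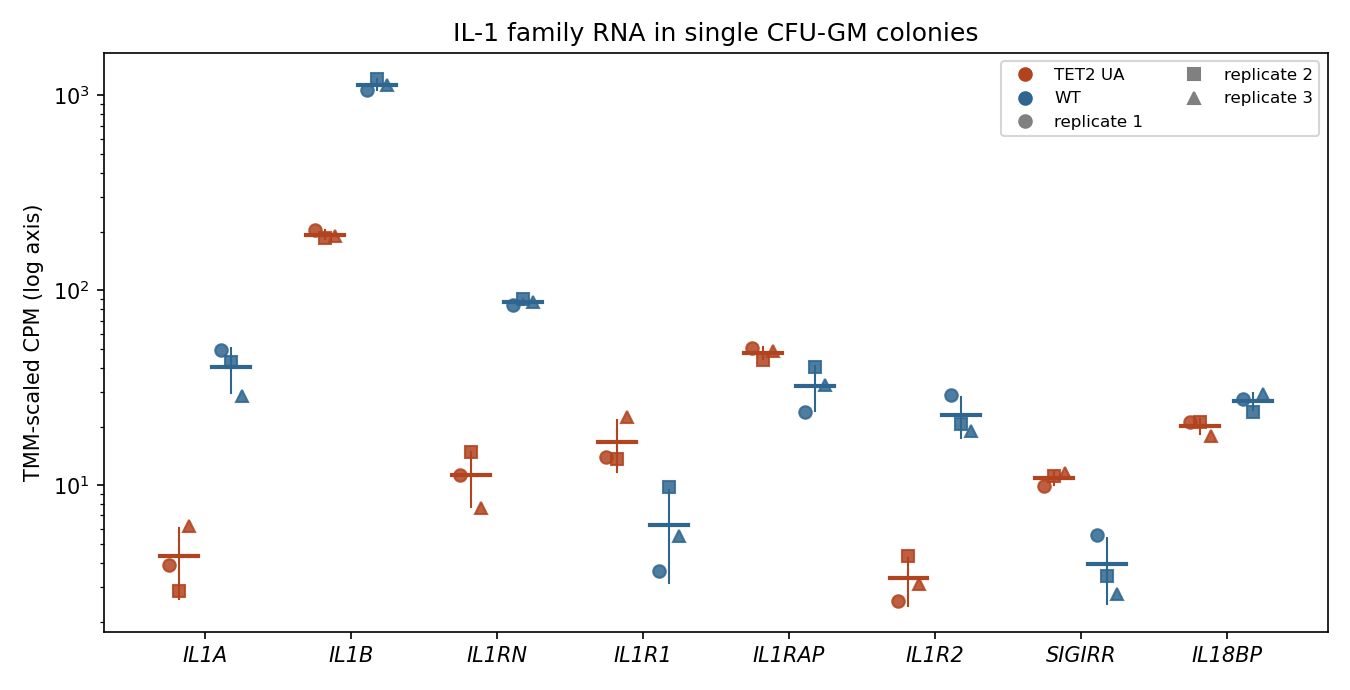
TMM-scaled CPM on a log axis for the 8 matched IL-1 family genes, with 1 symbol per library (UA left of WT), a bar at the mean and a line of 1 SD (n = 3 each). IL1A, IL1B, IL1RN and IL1R2 lie lower in every UA library than in any WT library, and IL1R1, IL1RAP and SIGIRR lie higher. Heights of different genes are not comparable, because CPM is not divided by gene length.

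IL1B, the main secreted IL-1 of monocytes and macrophages, had 205, 185 and 189 CPM in UA replicates 1 to 3, against 1065, 1208 and 1130 CPM in WT replicates 1 to 3. Replicates of each label were close together, and the 2 ranges were far apart. Mean levels were 193 ± 10.2 CPM for UA colonies and 1134 ± 71.8 CPM for WT colonies (± SD of 3 libraries), 5.87-fold lower in UA. The log2 fold change (log2FC, UA over WT) was -2.55 with a standard error (SE) of 0.14, and the edgeR adjusted p was 1.93e-07. By p-value IL1B ranked 111 of 13768 genes, and 13.2% of genes changed by more on the log2 scale. It was identified by the name interleukin 1 beta that the authors' deposited table gives to its row, on chromosome 13 from base 107818918 to base 107828254. That table names no genome build; Mmul_8.0.1 is the build in the submitters' processing notes.

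IL1A, a ligand that is active without cleavage and is often released by dying cells, had 3.90, 2.88 and 6.20 CPM in UA, from 72, 30 and 42 counts, against 49.3, 43.0 and 28.7 CPM in WT, from 1079, 450 and 341 counts. The lowest WT colony was above every UA colony, although the WT colonies spread more widely than for IL1B. IL1A fell by 3.26 on the log2 scale (SE 0.32, edgeR adjusted p = 1.01e-05), the largest change among the 8 members. The gene lies next to IL1B, at 107765464 to 107774298 of chromosome 13 in the authors' deposited table.

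IL1RN, which encodes the receptor antagonist, fell together with the ligands it opposes. It had 11.3, 14.8 and 7.68 CPM in UA, against 84.1, 90.0 and 87.0 CPM in WT. The WT colonies were nearly identical, with a coefficient of variation of 3.37%, whereas the UA colonies varied by 31.7%, on 208, 154 and 52 counts. The log2FC was -2.94 (SE 0.24, edgeR adjusted p = 2.61e-06), or 7.65-fold lower. Gene counts do not separate the secreted from the intracellular forms of the antagonist. The authors' deposited table places IL1RN at 108115981 to 108131820 of the same chromosome.

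The balance of antagonist to agonist RNA was followed as the ratio of IL1RN counts to the sum of IL1A and IL1B counts within each library, which needs no scaling between libraries. The ratio was 0.0541, 0.0786 and 0.0393 in UA, against 0.0755, 0.0719 and 0.0751 in WT. UA colonies lay on both sides of the narrow WT range. On the log2 scale the ratio averaged -4.18 ± 0.50 for UA colonies and -3.75 ± 0.04 for WT colonies (SD, n = 3 each), a difference of -0.43 (exact two-sided permutation p = 0.4, adjusted p = 0.4 over the 2 ratios tested). With 3 against 3 libraries the smallest p this test can give is 0.1. A shift in the balance was thus not detected beyond the spread of the UA colonies, which does not show that the balance was equal.

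The 3 receptor genes of IL-1 itself moved in opposite directions. IL1R1, the signalling receptor, had 14.0, 13.7 and 22.4 CPM in UA, against 3.65, 9.75 and 5.47 CPM in WT. UA replicate 3 was the highest and WT replicate 1 the lowest, on 152 and 80 counts, and the groups did not overlap. The log2FC was 1.42 (SE 0.38, edgeR adjusted p = 0.00622), or 2.68-fold higher. The call was lost when the UA libraries were summed (log2FC 1.33, edgeR adjusted p = 0.0693).

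IL1R2, the decoy that myeloid cells carry on their surface and shed, had 2.55, 4.33 and 3.10 CPM in UA, against 29.0, 20.7 and 18.9 CPM in WT. WT replicate 1 held 1.46 times the mean of the other 2 WT libraries, and even the lowest WT colony was well above the highest UA colony. IL1R2 fell by 2.80 on the log2 scale (SE 0.30, edgeR adjusted p = 1.87e-05), or 6.94-fold, and without WT replicate 1 by 2.58.

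IL1RAP, the accessory chain that IL1R1 needs to signal and that IL-33 and IL-36 receptors share, had 50.8, 44.1 and 48.7 CPM in UA, against 23.8, 40.5 and 32.7 CPM in WT. The gap between the lowest UA and the highest WT colony was small. Its log2FC of 0.57 (SE 0.22, edgeR adjusted p = 0.0372) was the smallest among the called members, and 71.5% of all genes changed by more. The call was lost without any 1 of the UA replicates (0.53, 0.63 and 0.56 without replicates 1, 2 and 3, edgeR adjusted p = 0.123, 0.0711 and 0.102), without WT replicate 3 (0.57, 0.0759), after thinning every library to the same total count (0.54, 0.0533) and with the UA libraries summed (0.61, 0.251). Membrane and soluble forms of IL1RAP are not separated by these counts. The authors' deposited table places it on chromosome 2, at 197239164 to 197384974.

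The decoy and the signalling receptor were also compared within each library. The ratio of IL1R2 to IL1R1 counts was 0.184, 0.317 and 0.141 in UA, against 7.88, 2.11 and 3.44 in WT. Every UA library held fewer reads of the decoy than of the receptor and every WT library held more, although the ratio is of reads and not of molecules, since gene lengths were not used. On the log2 scale it averaged -2.31 ± 0.60 for UA colonies and 1.95 ± 0.96 for WT colonies (SD, n = 3 each), a difference of -4.26, or 19.1-fold. The exact two-sided permutation p was 0.1, the smallest that 3 against 3 allow, and 0.2 adjusted over the 2 ratios, so this test alone could not call it. Without WT replicate 1, which had the highest ratio, the difference was -3.74.

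**Figure D2:**
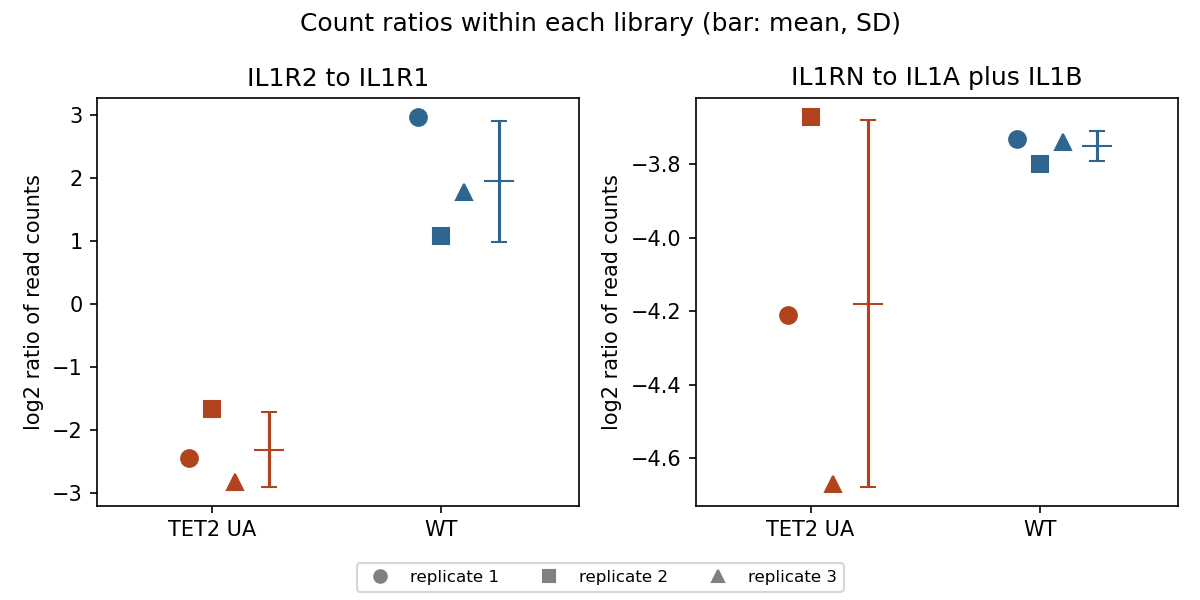
Log2 ratio of read counts within each library, for IL1R2 over IL1R1 (left) and IL1RN over IL1A plus IL1B (right), with 1 symbol per library and the mean with 1 SD beside it (n = 3 each, UA left of WT). The receptor ratio averages -2.31 in UA and 1.95 in WT without overlap, while the UA values of the antagonist ratio lie on both sides of the WT values.

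SIGIRR, a receptor-like protein that restrains IL-1 and Toll-like receptor signalling, had 9.97, 11.2 and 11.5 CPM in UA, against 5.57, 3.44 and 2.78 CPM in WT. UA colonies differed little and the highest WT colony, replicate 1, stayed below them. SIGIRR rose by a log2FC of 1.45 (SE 0.33, edgeR adjusted p = 0.00276), on as few as 33 counts in a WT library, and with the UA libraries summed it had 1.44 and was not called (edgeR adjusted p = 0.0672). Its position in the authors' deposited table is 249882 to 257039 of chromosome 14. The brakes of the family therefore did not move as a block: IL1RN and IL1R2 fell, and SIGIRR rose.

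IL18BP, the soluble inhibitor of IL-18, had 21.2, 21.0 and 18 CPM in UA, against 27.8, 23.9 and 29.3 CPM in WT. Although the groups did not overlap, its log2FC of -0.43 (SE 0.20) did not pass (edgeR adjusted p = 0.0823). It ranged from -0.51 to -0.26 over the alternatives and passed in none of them. With IL18 itself not analysed here, the planned ratio of IL18BP to IL18 could not be formed.

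**Figure D3:**
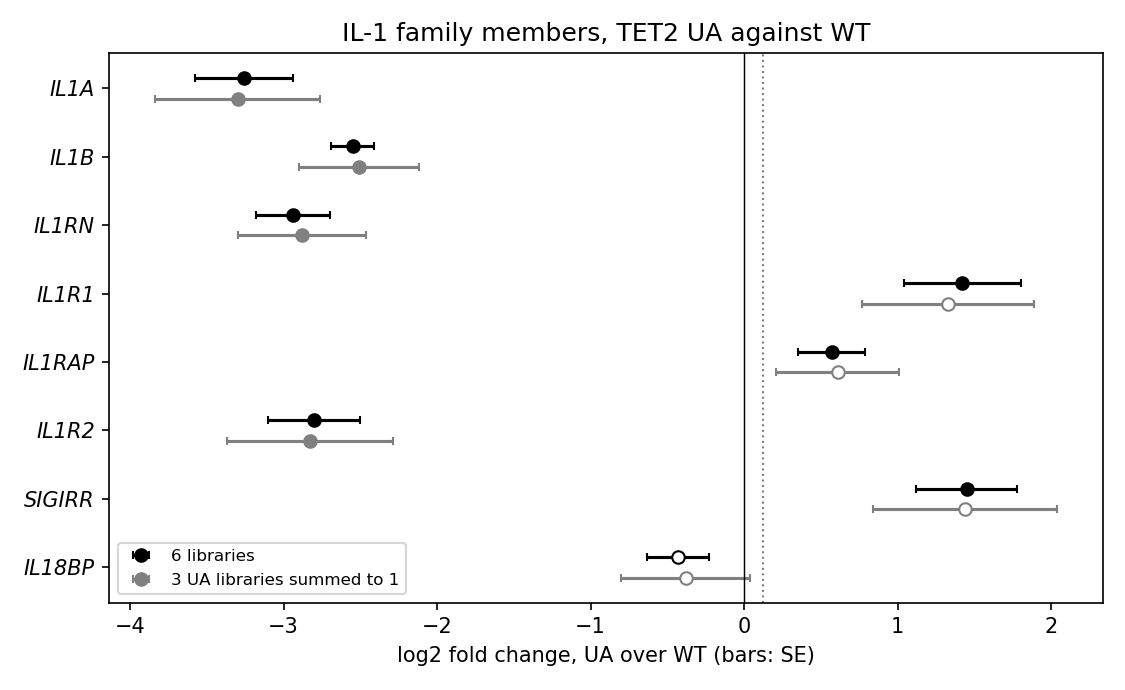
Log2 fold change of UA over WT with its standard error for each member, from the fit of 6 libraries (black) and with the 3 UA libraries summed to 1 sample (grey); filled points have an edgeR adjusted p under 0.05 and the dotted line marks 0.12, the median of all genes tested. IL1A, IL1B, IL1RN and IL1R2 are filled in both fits, with values from -3.30 to -2.51, whereas IL1R1, IL1RAP and SIGIRR are filled only with 6 libraries.

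Most members sit in 2 gene clusters of chromosome 13, whose order was taken from the RefSeq annotation of the assembly T2T-MMU8v2.0. In the receptor cluster the order is IL1R2, IL1R1, IL1RL2, IL1RL1, IL18R1 and IL18RAP. IL1R1 was the only gene of this cluster called higher in UA, and it lies beside IL1R2, which fell. IL1RL1, the receptor of the alarmin IL-33, had 1.03, 1.44 and 0.295 CPM in UA, against 12.8, 14.0 and 9.77 CPM in WT (log2FC -3.63, SE 0.44, edgeR adjusted p = 3.93e-05). All UA colonies were far below all WT colonies, with no more than 19 counts each, and after thinning the log2FC was -4.63.

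The ligand-binding chain of the IL-18 receptor, IL18R1, had 1.57, 1.44 and 1.77 CPM in UA, against 12.3, 21.4 and 15.8 CPM in WT. It fell by 3.37 on the log2 scale (SE 0.33, edgeR adjusted p = 9.27e-06). Its partner chain IL18RAP had 0.921, 1.92 and 0.886 CPM in UA, against 5.07, 4.97 and 3.79 CPM in WT. It fell by 1.88 (SE 0.49, edgeR adjusted p = 0.00596), a call that was lost with the UA libraries summed (-1.91, edgeR adjusted p = 0.089). IL1RL2, the IL-36 receptor, had at most 13 counts in any library and was not tested.

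**Figure D4:**
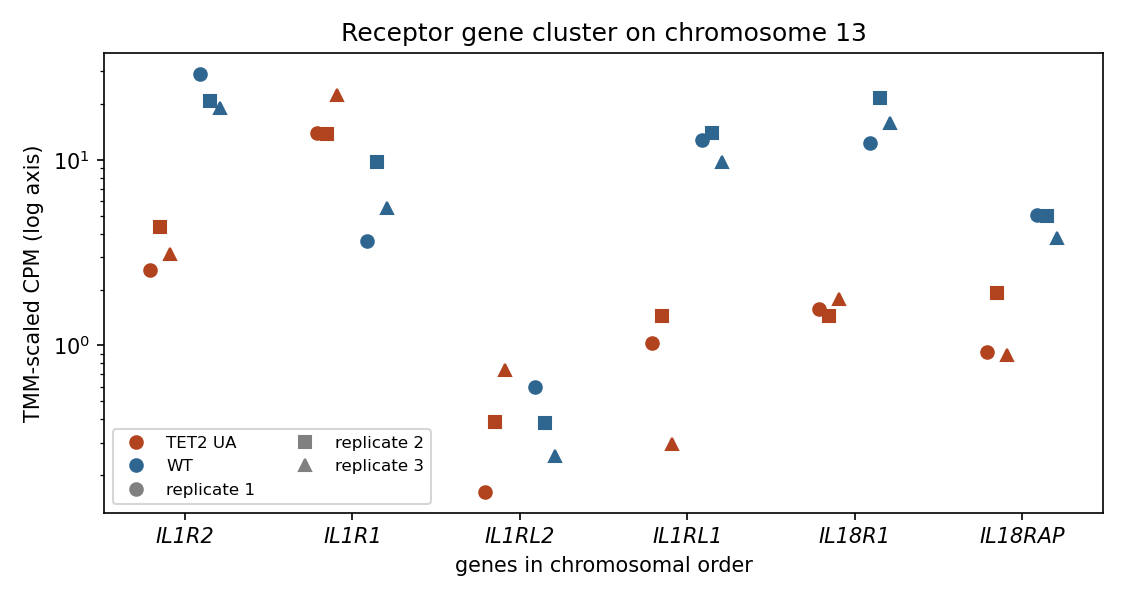
TMM-scaled CPM on a log axis for the 6 receptor genes in their order along chromosome 13, with 1 symbol per library and UA left of WT. IL1R1 is higher in UA, at 13.7 to 22.4 CPM, while its neighbours IL1R2, IL1RL1, IL18R1 and IL18RAP are lower.

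In the ligand cluster IL1A and IL1B lie towards one end and IL1RN at the other. Of the 7 genes between them, LOC700460, IL36RN and IL1F10 were matched to no row and were not analysed here, and the other 4 had few counts. IL36B had 0 counts in all 6 libraries and IL36A 5 counts in UA and 0 in WT. IL36G had 10 counts in UA and 61 in WT, and IL37, an anti-inflammatory family member, had 43 in UA, all from replicates 1 and 2, and 20 in WT. None of these was tested, because of low counts. IL33, an alarmin encoded elsewhere and typical of endothelial and stromal cells, had 14, 17 and 9 counts in UA and 0 in each WT library, at least 16.6-fold higher in UA when WT is set to 3 counts in all. Endothelial and stromal marker genes were mostly higher in the same libraries, with a summed level of 1298 to 1335 CPM in UA and 149 to 155 CPM in WT. Their part in the IL33 counts was not tested.

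The other genes of the pathway were taken from 4 lists, of which 55 genes were tested: 19 rose, 25 fell and 11 did not pass, so that 80% were called, against 66.0% of all genes. Among the 13 other IL-1 family ligands and receptors listed, 3 were tested, the receptor chains above, and all 3 fell. With the UA libraries summed, 24 of the 55 (43.6%) were called, close to the 38.9% of all genes called in that fit.

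Genes listed for the maturation and release of IL-1, not all of them enzymes, went both ways. Of 15 tested genes 8 rose and 5 fell. The share called was 86.7%, against 66.0% of all genes tested (34.6% higher and 31.4% lower). The median log2FC was 0.57 in the list and 0.12 over all genes tested. CASP1, the protease that cleaves pro-IL-1β, had 128, 113 and 96.7 CPM in UA, against 629, 364 and 357 CPM in WT (log2FC -2.0, SE 0.23, edgeR adjusted p = 2.75e-05). Every UA colony was below every WT colony, and WT replicate 1 stood above the other WT colonies. CASP4, an inflammatory caspase that senses lipopolysaccharide, fell by 1.89 on the log2 scale (SE 0.17), and NINJ1, which ruptures the membrane of dying cells, by 1.71 (SE 0.20), with edgeR adjusted p of 5.14e-06 and 2.92e-05.

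ELANE and CTSG, neutrophil granule proteases that can cleave IL-1 family precursors outside the cell, went the other way. ELANE had 3166, 3024 and 3144 CPM in UA, against 109, 78.3 and 95.7 CPM in WT (log2FC 5.04, edgeR adjusted p = 1.73e-08). CTSG had 4052, 3729 and 3830 CPM in UA, against 270, 187 and 199 CPM in WT (log2FC 4.15, edgeR adjusted p = 6.06e-08). Both also belong to the neutrophil precursor markers given further on. CASP8, a caspase that can also cleave pro-IL-1β, was named after its values were seen and was higher, unlike CASP1 and CASP4, at a log2FC of 1.02 (edgeR adjusted p = 0.0212, and 0.0984 with the UA libraries summed). CASP5 and GSDME did not pass, with log2FCs of 0.53 and -0.52 (edgeR adjusted p = 0.401 and 0.246). Without UA replicate 2 CASP5 had -0.19, and without UA replicate 3 GSDME had -0.99 and was called (edgeR adjusted p = 0.0401). NLRC4, an inflammasome sensor, had 40 counts in UA and 0 in WT. AIM2 and NLRP3, sensors of the same kind, and GSDMD, all from this list, were named after their values were seen. AIM2 rose in UA (log2FC 1.24, edgeR adjusted p = 0.000297), as did NLRP3 (0.63, 0.0216), whereas GSDMD fell (-1.12, 0.000486).

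Signalling genes downstream of IL1R1 went both ways, with 5 of 18 tested higher, 7 lower and 6 not passing, and a median log2FC of -0.25. The share called, 66.7%, is that of all genes tested, 66.0% (34.6% higher and 31.4% lower). PELI2, a ubiquitin ligase that acts on IRAK1, had 11.5, 11.2 and 8.71 CPM in UA, against 1.42, 0.382 and 0.421 CPM in WT (log2FC 3.69, SE 0.50, edgeR adjusted p = 7.93e-05). WT replicate 1, with 31 of the 40 WT counts, made the difference smaller: without that library the log2FC was 4.68. After thinning the log2FC was 5.50. UBE2N and UBE2V1, the enzyme pair that builds K63-linked ubiquitin chains, had log2FCs of -1.35 and -0.87 (edgeR adjusted p = 2.67e-05 and 0.000386). IRAK2, a kinase that sustains the response, had -1.30 and MAP2K4, a kinase upstream of JNK, -0.96 (edgeR adjusted p = 0.00194 and 0.00522). The calls of UBE2V1, IRAK2 and MAP2K4 were lost with the UA libraries summed (edgeR adjusted p = 0.0648, 0.0628 and 0.114).

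MYD88, IRAK3 and TOLLIP were named after their values were seen, as the receptor's adaptor and 2 known brakes on it. MYD88 had 106, 110 and 116 CPM in UA, against 108, 191 and 194 CPM in WT, so that WT replicate 1 lay within the UA range. Its log2FC of -0.57 was called (edgeR adjusted p = 0.0354), but not when WT replicate 2 or 3 or any UA replicate was left out (edgeR adjusted p = 0.076 to 0.127), nor with library size alone (-0.43, 0.153), upper-quartile factors (-0.48, 0.0706) or the UA libraries summed (-0.57, 0.268). IRAK3, a kinase-dead member of its family, rose by a log2FC of 0.76 (edgeR adjusted p = 0.00947), and with the UA libraries summed it was not called (0.77, edgeR adjusted p = 0.147). TOLLIP fell by 0.83 (edgeR adjusted p = 0.00994), and was not called without UA replicate 1 (-0.74, edgeR adjusted p = 0.058) or with the UA libraries summed (-0.86, edgeR adjusted p = 0.164).

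IRAK1, IRAK4, TAB1, MAP3K7, IKBKB and CHUK, kinases and an adaptor between the receptor and NF-kB, did not pass, with log2FCs from -0.58 to 0.55. IRAK1, at 0.53 (edgeR adjusted p = 0.0546), passed under 10 of 17 alternatives. MAP3K7 passed in limma-voom (-0.46, adjusted p = 0.00504) and in edgeR when WT replicate 1 was left out (-0.48, adjusted p = 0.00315). CHUK passed in limma-voom (-0.75, adjusted p = 1.88e-05), in DESeq2 (-0.59, adjusted p = 0.0422), and in edgeR when no low-count filter was set (-0.60, adjusted p = 0.00688) or WT replicate 1 was left out (-0.85, adjusted p = 2.08e-06).

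Of the genes that IL-1 is known to induce, 19 were tested: 10 were lower, 6 higher and 3 did not pass. The median log2FC was -0.77. The share called was 84.2%, against 66.0% of all genes tested (34.6% higher and 31.4% lower). CCL2, a monocyte-attracting chemokine, had 13.4, 9.81 and 10.5 CPM in UA, against 4963, 2682 and 2554 CPM in WT (log2FC -8.23, edgeR adjusted p = 4.19e-08). CSF2, which encodes GM-CSF, had 4, 1 and 0 counts in UA, against 2152, 611 and 884 in WT (log2FC -9.03, edgeR adjusted p = 1.06e-07). With so few UA counts the size is loose, and the log2FC was -10.14 without UA replicate 1 and -10.09 after thinning. SOD2, a mitochondrial superoxide dismutase, had 230, 229 and 228 CPM in UA, against 893, 614 and 642 CPM in WT (log2FC -1.65, edgeR adjusted p = 1.23e-05).

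A neutrophil-attracting CXC chemokine fell by 3.63 on the log2 scale (SE 0.19, edgeR adjusted p = 1.25e-07). The authors' deposited table describes its row as CXCL3 and the table of gene names as CXCL1, near-identical genes that can share reads. Other IL-1-induced genes rose. PTGS2, the inducible cyclooxygenase, and TNFAIP3, an inhibitor of NF-kB signalling, both named after their values were seen, had log2FCs of 1.55 and 2.54 (edgeR adjusted p = 0.00152 and 0.000189). TNFAIP3 was at 262, 265 and 273 CPM in UA, against 16.6, 61.7 and 60.0 CPM in WT, with WT replicate 1 the lowest. SELE, which encodes E-selectin and is also among the endothelial markers, had 1543 counts in UA and 1 in WT, a ratio of 1916 that rests on that 1 count in WT replicate 2, with a 95% exact counting interval of 343 to 75708. ZC3H12A, LIF and IL23A did not pass, with log2FCs of 0.15, -1.52 and -0.40.

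**Figure D5:**
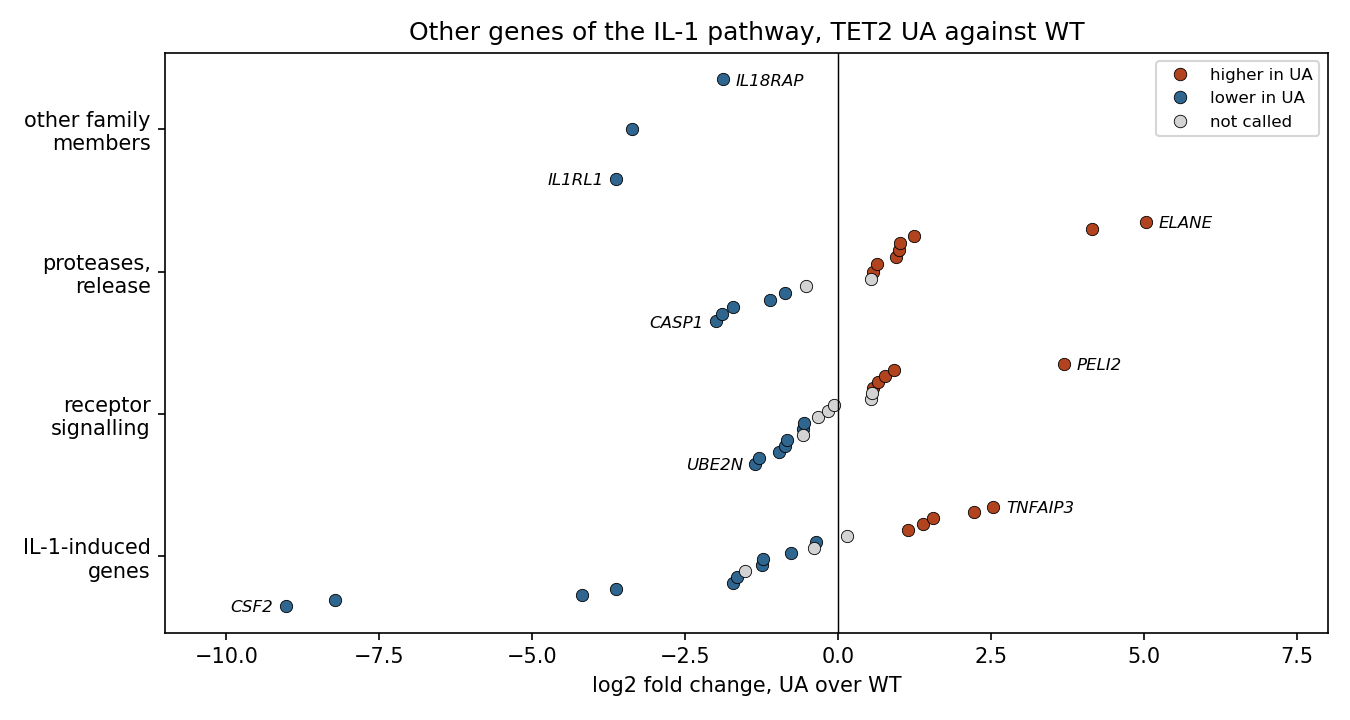
Log2 fold change of UA over WT for tested genes of the 4 lists, with 1 point per gene coloured by its call (edgeR adjusted p under 0.05); SELE, with 1 count in WT, is left out. Named points are the lowest and highest of each list: the 3 other receptor chains are all lower, ELANE is the highest of the proteases, and the IL-1-induced genes reach from CSF2, at -9.03, to TNFAIP3, at 2.54.

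Markers of several cell types moved in the same libraries as the IL-1 genes. Their counts of calls stand beside the 66.0% of all genes called, 34.6% higher and 31.4% lower in UA. Neutrophil precursor markers were higher, with 6 of 7 tested called and a summed level of 24330 to 25184 CPM in UA and 1171 to 1297 CPM in WT. Of 11 monocyte and macrophage markers tested, 7 rose and 1, CD14, fell, with a summed level of 8323 to 8502 CPM in UA and 1780 to 2189 CPM in WT. Most of that sum was LYZ, which encodes lysozyme, at a mean of 7600 CPM in UA and 464 CPM in WT. Without LYZ the order turned, to 810 to 853 CPM in UA and 1325 to 1655 CPM in WT. That turn rested on CD14, at a mean of 21.7 CPM in UA and 1147 CPM in WT. Dendritic cell markers fell in 5 of 8 and rose in 1, at 355 to 381 CPM in UA and 434 to 462 CPM in WT, and without FLT3, the most abundant of them, at no more than 109 CPM in UA and 376 to 420 CPM in WT. CD207 (langerin) was almost absent from UA, with 3 counts in UA and 3586 in WT. CD14 and CD207 were named after their values were seen.

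Megakaryocyte markers summed to 760 to 773 CPM in UA and 419 to 466 CPM in WT, with 5 of 7 higher and 1 lower. Most of the WT sum was TUBB1, at a mean of 203 CPM in UA and 440 CPM in WT. Without TUBB1 the sum was 549 to 574 CPM in UA and 7.65 to 9.63 CPM in WT. Of the markers of mast cells, basophils and eosinophils 5 of 6 rose, and they summed to 1489 to 1590 CPM in UA and 102 to 111 CPM in WT. Endothelial and stromal markers rose in 9 of 10 and fell in 1, DCN. Most of their WT sum was DCN, at a mean of 21.6 CPM in UA and 113 CPM in WT. Without COL1A2, at a mean of 560 CPM in UA and 0.942 CPM in WT, the sum was 745 to 761 CPM in UA and 148 to 154 CPM in WT. Among 6 lymphoid markers 4 rose and 2 fell, with a sum of 199 to 222 CPM in UA and 136 to 154 CPM in WT. CD3E had 0 counts in WT. Without IL7R the lymphoid sum was 183 to 204 CPM in UA and 57.8 to 67.9 CPM in WT. Among 5 erythroid markers 3 rose and 2 fell, with a sum of 39.6 to 50.9 CPM in UA and 212 to 261 CPM in WT. RHAG, a red cell membrane protein gene, made up most of the WT sum, with a mean of 12.9 CPM in UA and 214 CPM in WT. Without RHAG the sum was 29.1 to 35.7 CPM in UA and 14.4 to 24.9 CPM in WT. LYZ, FLT3, TUBB1, COL1A2, IL7R and RHAG were named after their values were seen, each as the gene of highest mean level in its list. DCN was also named after its values were seen. The part of these cell types in the IL-1 family differences was not tested.

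The genes whose profile over the 6 libraries was most like that of each member were ranked by Euclidean distance between log2(CPM + 0.5) values centred on each gene's mean, among 9387 genes with a symbol and a mean of at least 5 CPM. For IL1B they were PCBD1, DPP10 and CYP51A1, at distances of 0.228, 0.308 and 0.326. For IL1RN they were SLC7A11, BNIP3 and GCAT (0.215, 0.407 and 0.463), and for IL1A, WDR53, TMEM176B and NOP16 (0.63, 0.631 and 0.654). IL1R2 was closest to NOP10, RPP25L and TSFM (0.321, 0.338 and 0.367), and IL1R1 to COBLL1, ZNF91 and DIS3L (0.433, 0.448 and 0.493). IL1RAP was closest to HMBOX1, PTPRA and NEK7 (0.136, 0.162 and 0.171), SIGIRR to ARID1A, ACP5 and DYRK1A (0.24, 0.267 and 0.284), and IL18BP to POC1A, KLHDC3 and CLPTM1L (0.157, 0.166 and 0.167). No member was among the 3 genes closest to another member.

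Of the 8 members, 5 are also in the authors' deposited table of differential expression, for which the sources used here do not name the groups compared. Its adjusted p-values go no higher than 0.05, and it holds 20091 of the 32386 rows of the count table. Presence in it is therefore common among genes at large. IL1R1, IL1R2 and IL18BP are not in it. IL1B has a log2FC of 2.73 in the authors' deposited table, opposite in sign to IL1A at -3.06, IL1RN at -3.38, IL1RAP at -1.52 and SIGIRR at -4.48. In the present comparison IL1B fell with IL1A and IL1RN, and IL1RAP and SIGIRR rose, so that no choice of direction makes the signs match for all 5 genes. The authors' deposited table gives IL1B a mean normalized count of 435, whereas its raw counts in the 6 colonies averaged 9390. For IL1A, IL1RN, IL1RAP and SIGIRR the normalized means were 33.0, 25.5, 63.6 and 37.8, against raw means of 336, 705, 510 and 95.0. Normalized and raw counts are unlike measures, and the cause of the gaps was not tested.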

How the data were processed

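Single colonies were split for DNA and RNA, and cDNA was made with the SMART-Seq V4 kit and sequenced as Nextera XT libraries, per the labels' protocols. The kit marks neither strand nor molecule, so overlapping genes cannot be told apart and intervals cover counting error only. Per the submitters' processing notes the build is Mmul_8.0.1 and bcl2fastq was used; the aligner and counter are not given there. The authors deposited raw counts per gene, without normalization. Their deposited differential expression table lists for each gene the signal baseMean, log2 fold changes and SEs, a test score and p-values, per the file headers.

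Symbols were row names (2529), the deposited table's symbols (9225), a table of gene names (7221), or names or older symbols read from the deposited table (8, IL1B among them), and 13403 rows had none. The 6 libraries were fitted together in edgeR 4.0.16 under R 4.3.3 (robust glmQLFit, glmQLFTest). Genes were kept by filterByExpr (minimum count 10, total 15), TMM factors ran between 0.86 and 1.07, and Benjamini-Hochberg adjustment covered 13768 genes. A count of 0 allows 0.137 to 0.443 CPM by library (3 counts). The fit was also run on simulated data with few changed genes and the same spread for every gene and group. These data differ in both, so that run is no check of the calls here.

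Alternatives were other scalings, filters, DESeq2 1.42.0, limma 3.58.1 (voom), a replicate block, an adjusted p under 0.01, summed UA libraries, thinning to 6334264 counts and leaving out each library. Named genes were the members, TET2, in each pathway list the 5 called genes of smallest p and those not called, the 3 genes most like each member, and marker genes at 0. The members and lists were chosen with earlier results of these data known, and lists are described by counts and medians without a set test. Same-numbered UA and WT libraries did not deviate together (correlations 0.013 to 0.022), so the numbers were not treated as pairs. No reference sequence was used here.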

Additional observations from a re-analysis of the deposited data

How the results depend on the processing

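Over 17 alternatives each, the log2 fold changes of the 8 members never changed sign, and 127 of 136 values kept their side of the threshold. The calls of IL1A, IL1B, IL1RN and IL1R2 held in all 17, and the 9 lost calls were 7 of IL1RAP and 1 each of IL1R1 and SIGIRR. Summing the UA libraries to 1 sample lowered the calls to 4 members, 24 other pathway genes and 5360 genes in all, against 7, 44 and 9091, with fewer samples behind the test. Between 14009 and 14535 genes were tested when 1 library was left out, against 13768 with all libraries. Leaving out 1 library gave 6 to 7 members, 34 to 47 other pathway genes and 7916 to 9949 genes. It moved the log2 difference of IL1RN to IL1A plus IL1B between -0.69 and -0.19, and that of IL1R2 to IL1R1 between -4.69 and -3.74. Library size alone moved the median of all genes to 0.28, against 0.121 with TMM, and all 8 members' values upwards. With the replicate block 7 members, 44 other pathway genes and 8939 genes were called, and no member's call changed; the replicate numbers share only a number, with each UA library correlating best with its own number at 0.013 to 0.022.

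Signs turned only for genes that were not called: TAB1 (-0.06 as reported) had 0.03 with upper-quartile factors, 0.10 with library size alone, 0.02 after thinning and -0.29 to 0.24 when 1 library was left out. ZC3H12A (0.15 as reported) had -0.10 with limma-voom and -0.13 to 0.64 when 1 library was left out, and CASP5 (0.53 as reported) had -0.19 to 0.86 when 1 library was left out; the cause was not tested. The ratio of IL18BP to IL18 was not run. UA libraries with 21 to 47 counts of IL1R2 limit the precision of its level.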
